A study of Mus musculus with 12 samples.

Results

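The comparison is of RNA held by tagged ribosomes in spinal cord of Chat bacTRAP mice with the RNA of the same tissue before the pulldown. It takes in 6 of the 12 libraries of the series, which are the 3 pulldowns TRAP_Chat 1 to 3 and the 3 inputs PreIP_Chat 1 to 3, chosen by their titles. Both groups came from the strain Tg(Chat-EGFP/Rpl10a)DW167Htz at postnatal day 21, so the inputs carry the transgene too, and the ribosomal protein Rpl10a fused to EGFP is made wherever the Chat sequences of the transgene are active. A second strain, Tg(Snap25-EGFP/Rpl10a)JD362Jdd, gave 3 inputs (PreIP_Snap25) and 3 pulldowns (TRAP_Snap25) at the same age. These libraries are used to ask whether a change differed between the lines. They also take part in the fit, so they enter the choice of tested genes, the scaling and the estimate of spread behind every call. The Snap25 sequences are active in neurons in general. The labels do not say how many animals a library holds or which cells of the cord carry the tag, and each strain is a single transgenic line.

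In translating ribosome affinity purification (TRAP), a tagged ribosomal protein is pulled down with an antibody, and messages being read by ribosomes of the tagged cells come with it. RNAs that ribosomes of the cytosol do not hold, such as transcripts made inside mitochondria or RNAs kept in the nucleus, are left behind to the extent that the pulldown is clean. Chat encodes choline acetyltransferase, which makes acetylcholine. In the cord it is made by motor neurons, whose axons leave the cord for the muscles, and by smaller sets of cholinergic cells. Motor neurons are among the largest neurons of the body, and their long axons are known to depend on mitochondria, on transport along microtubules and on upkeep of proteins far from the nucleus.

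Values are in CPM, the read count scaled to a fixed library total after TMM scaling, given in the order of replicates 1, 2 and 3. A log2 change is that from input to pulldown in the fit, with its standard error (SE) after ±. A gene was called higher or lower when its edgeR adjusted p was below 0.05 over all 15905 tested genes. Total counts ran from 17865320 to 20521699 in the inputs and from 13364081 to 16504397 in the pulldowns, and 3 counts equalled 0.146 to 0.168 CPM and 0.182 to 0.224 CPM of total counts, respectively. Chat rose from 30.2, 20.3 and 16.1 CPM in the inputs to 106, 185 and 187 CPM in the pulldowns (log2 change 2.84 ± 0.30, edgeR adjusted p = 1.61e-05), so every pulldown lay above every input. Rpl10a, whose reads cannot be split between the transgene and the gene of the mouse, went from 9.59, 7.14 and 9.26 CPM in the inputs to 2.72, 5.52 and 2.92 CPM in the pulldowns (log2 change -1.22 ± 0.44, edgeR adjusted p = 0.0475), and lost its call without TRAP_Chat 1 (edgeR adjusted p = 0.118). It was called in 6 of 14 alternatives. Replicates of the pulldown varied more, with a biological coefficient of variation of 0.479 against 0.231 for the inputs.

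TRAP_Chat 1 stood apart from the other pulldowns. Mitochondrial ribosomal RNA made up 6.67% of its counts against 0.303% and 0.358% in TRAP_Chat 2 and 3, and 25.5%, 26.2% and 23.2% in the inputs. The summed level of 18 cholinergic motor neuron markers was 509, 792 and 715% of the input mean in the pulldowns, and all 18 were called higher. Markers of glia, vessels and inhibitory neurons remained in the pulldowns, most at lower levels, and none of them was at 0 in all 3 libraries. Of 17 astrocyte markers 16 were lower and 1 was higher, at a log2 change of 0.89. That call was not kept in every fit that leaves out 1 library. Of 13 inhibitory neuron markers 12 were lower and 1 was not called. The summed level of 11 excitatory interneuron markers was 104, 109 and 91.3% of the input mean, but 6 (3 without PreIP_Chat 1) of them were lower, Cck was higher (not without PreIP_Chat 2 or 3) and their median log2 fold change was -1.47. The summed level was 29.3, 11.1 and 15.8% of the input mean for 18 oligodendrocyte markers, 32.9, 23.2 and 23.4% for 11 markers of their precursors, 45.3, 30.8 and 30.9% for 17 astrocyte markers, 26.7, 16.7 and 19.7% for 15 microglia markers, 29.4, 18.6 and 12.5% for 17 markers of vessels and meningeal fibroblasts and 28.9, 15.2 and 30.1% for 13 markers of inhibitory neurons. The input PreIP_Chat 2 stood out for muscle genes, with a summed level of 546 CPM for 13 of them against 19.3 and 90.4 CPM in the other inputs. It was also the highest input for markers of vessels and meningeal fibroblasts, with the inputs at 86.0, 152 and 61.7% of their mean. PreIP_Chat 3 differed from the other inputs in its share of long noncoding counts, at 4.26% against 12.6% and 13.5%. Its share of nuclear protein-coding counts was 71.4% against 59.6% and 58.3%. Log2 CPM correlated at 0.97 between each pair of inputs. Results that rest on TRAP_Chat 1 are given with and without it. In a bulk sample, fewer cells of a type and less RNA per cell cannot be told apart.

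**Figure D1:**
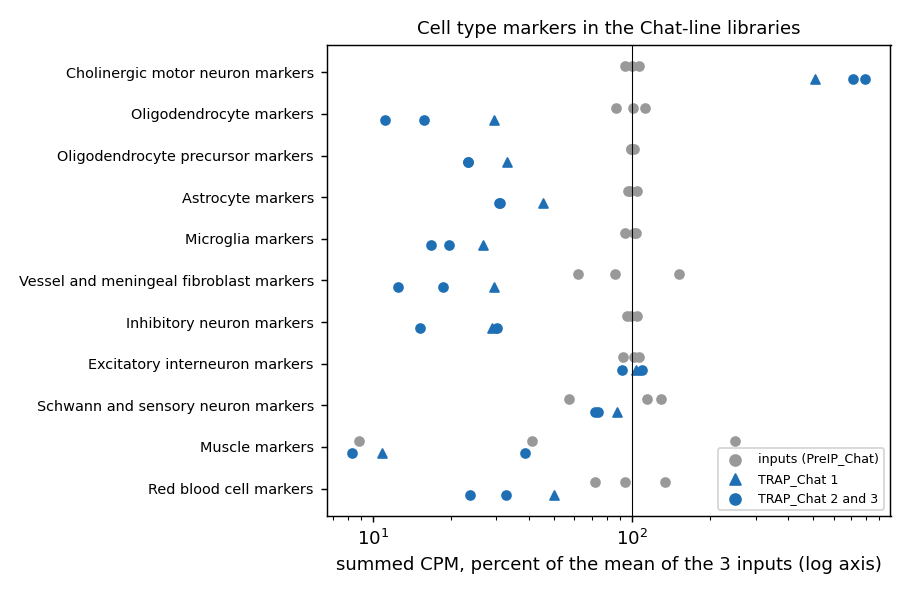
Summed level of each list of cell type markers in the 6 Chat-line libraries, as a percent of the mean of the 3 inputs, on a log axis. Points are libraries (inputs grey, pulldowns blue, TRAP_Chat 1 as a triangle). The cholinergic list lies at 509% to 792% in the pulldowns, and the oligodendrocyte list at 11.1% to 29.3%.

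The pulldown had more of 2005 genes (12.6% of the 15905 tested) and less of 2268 (14.3%), and the median log2 fold change over all of them was -0.06. Without TRAP_Chat 1 the counts were 1715 (10.4%) and 2199 (13.3%) of 16496. Without PreIP_Chat 1, 2 or 3 the number higher was 1314, 1191 and 1315. The 3 libraries of one group lay wholly above those of the other for 47.9% of tested genes. Of the tested genes 6231 stood in 1 or more of 121 lists of at least 4 tested genes, drawn up by function except for a pair that only share a style of name (predicted genes named Gm or Rik). More members were higher than lower in 50 lists and more were lower in 61. For each list the counts are to be read against 12.6% higher and 14.3% lower over all genes, and a count of 1 or 2 could go to 0 or double when 1 library was left out.

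Of the lists by function, the 6 with the largest share of members called higher were all of mitochondria. Of 37 nuclear-encoded subunits of complex I, which passes electrons from NADH into the respiratory chain, 29 were higher and 0 lower, with a median log2 fold change of 1.18. Complex III had 6 of 9 higher (median 1.11), complex IV, or cytochrome c oxidase, 9 of 15 (median 0.84), and the ATP synthase 12 of 19 (median 0.99), and none of these lists had a member called lower. Atp5k, a small subunit of the ATP synthase, rose from 122, 114 and 117 CPM in the inputs to 826, 592 and 443 CPM in the pulldowns (log2 change 2.40 ± 0.31, edgeR adjusted p = 8.86e-05). The lowest pulldown was more than 3 times the highest input. Cox7b, of complex IV, rose from 201, 160 and 196 CPM in the inputs to 877, 757 and 550 CPM in the pulldowns (log2 change 1.97 ± 0.33, edgeR adjusted p = 0.000599), and Ndufa2, of complex I, rose from 103, 114 and 111 CPM in the inputs to 520, 428 and 249 CPM in the pulldowns (log2 change 1.87 ± 0.31, edgeR adjusted p = 0.000579). In all 3 genes TRAP_Chat 1 was the highest library, and without it their edgeR adjusted p was 0.000293, 0.00223 and 0.00251.

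The machinery that brings proteins into mitochondria had no member called lower. Of 21 import genes 10 were higher and 0 lower, with a median of 0.99. Tomm7, of the outer membrane channel, rose 4.66-fold (log2 change 2.22 ± 0.39, edgeR adjusted p = 0.000773), and Timm10b, a small chaperone between the membranes, 4.57-fold (log2 change 2.19 ± 0.31, edgeR adjusted p = 0.000160). Among carriers of the inner membrane 8 (2 without PreIP_Chat 2 or PreIP_Chat 3, 5 without TRAP_Chat 2 or PreIP_Chat 1) of 40 were higher and 5 (2 without TRAP_Chat 2 or PreIP_Chat 3, 3 without TRAP_Chat 3 or PreIP_Chat 2) lower. Slc25a39, which brings glutathione into mitochondria, rose 2.57-fold, whereas Slc25a27, an uncoupling protein of neurons, fell 2.44-fold. The citric acid cycle had 8 (4 without PreIP_Chat 2 or PreIP_Chat 3, 5 without TRAP_Chat 1 or TRAP_Chat 2 or PreIP_Chat 1) of 22 higher and 1 lower. Sucla2, a subunit of succinyl-CoA ligase, rose 2.47-fold and Pdhb, of pyruvate dehydrogenase, 2.24-fold.

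Of 19 glycolysis genes 1 was higher and 2 lower, and the median was 0.05. In a fit of the Chat-line libraries alone, in which 2392 of 14905 genes were higher (16%) and 2463 lower (16.5%), 3 were higher and 4 lower. Aldoa, the muscle-type aldolase, went from 837, 818 and 701 CPM in the inputs to 1606, 1428 and 1255 CPM in the pulldowns (log2 change 0.86 ± 0.25, edgeR adjusted p = 0.0183), a call that was lost without TRAP_Chat 1 (edgeR adjusted p = 0.0539) and without PreIP_Chat 2 or 3. Aldoc, the aldolase of astrocytes and Purkinje cells, fell from 1395, 1250 and 1105 CPM in the inputs to 814, 493 and 465 CPM in the pulldowns (log2 change -1.08 ± 0.28, edgeR adjusted p = 0.00966), a call lost without TRAP_Chat 2. Among genes of creatine and phosphagen handling the enzymes that make creatine were lower, with Gatm down 4.08-fold (log2 change -2.03 ± 0.29, edgeR adjusted p = 0.000197) and Gamt down 2.15-fold (log2 change -1.11 ± 0.28, edgeR adjusted p = 0.00807).

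**Figure D2:**
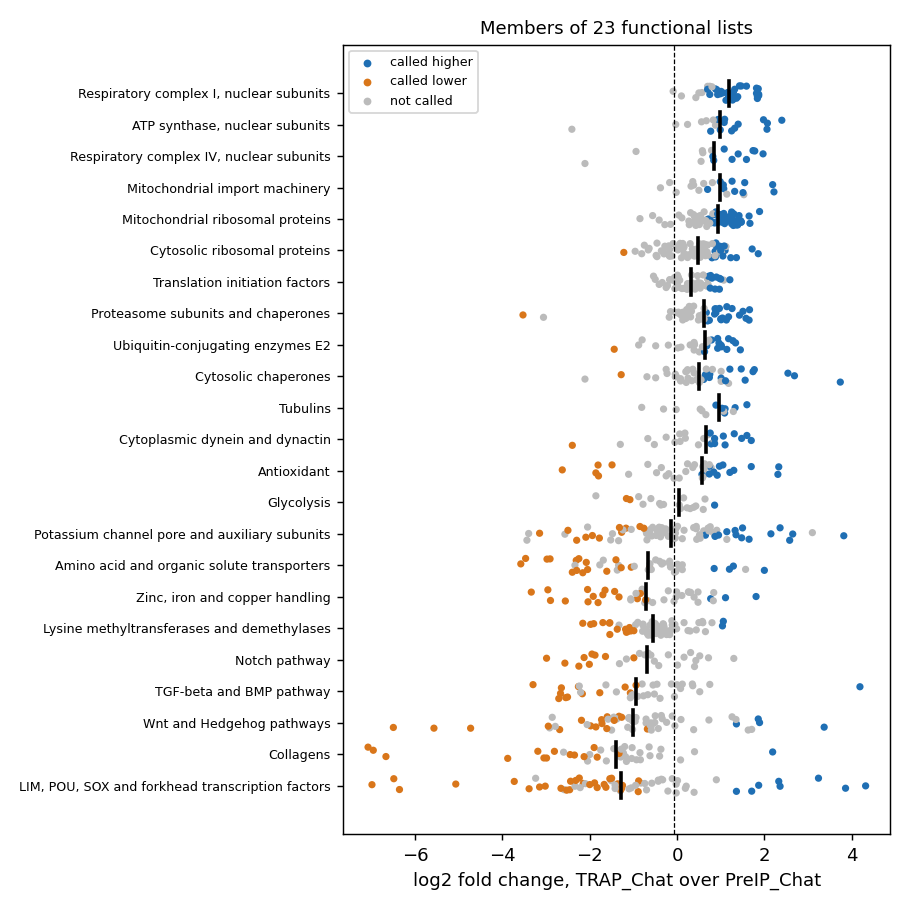
Log2 fold change (pulldown over input) of every tested member of 23 functional lists. Points are genes (blue called higher, orange called lower, grey not called), black bars are list medians, and the dashed line is the median of all tested genes at -0.06. The lists of complex I, the mitochondrial ribosome and the ATP synthase lie to the right of the line, and those of collagens and of the Wnt and Hedgehog pathways to its left.

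Since these energy genes moved together, their promoters were searched for the motif of nuclear respiratory factor 1 (Nrf1), which is known to bind before many genes of respiration. The letters searched were GCGCA, then any base, then GCGC, on both strands of the 250 bases before each RefSeq start. The motif reads nearly the same on both strands, and overlapping matches were counted apart. It stood before 6 of 33 complex I genes with a promoter in the RefSeq table (18.2%), 5 of 17 of the ATP synthase (29.4%), 10 of 65 of the mitochondrial ribosome (15.4%), 1 of 12 of complex IV (8.33%), 0 of 5 of complex III and 1 of 58 of the cytosolic ribosome (1.72%). Lists with fewer genes called higher held it about as often, with 7 of 36 SNARE genes (19.4%) and 6 of 33 J-domain genes (18.2%). Of the 11333 tested protein-coding genes with a promoter there, 8.61% held it, with 8.69% of those called higher, 6.25% of those called lower and 9.08% of those not called. These are 79.5% of the 14248 tested protein-coding genes, too few for a check over all of them, so that check is void and the shares describe the listed promoters only. Over all 32851 starts in the table, noncoding ones included, 3.74% held it. The windows of a complex I gene, an ATP synthase gene and a mitochondrial ribosome gene are shown because each gene was called higher and carries the motif, which is in capitals, on the strand of the gene (GRCm38.p6, RefSeq), and a match is a description of the letters only.
Ndufb4, minus strand, chr16:37654369-37654618: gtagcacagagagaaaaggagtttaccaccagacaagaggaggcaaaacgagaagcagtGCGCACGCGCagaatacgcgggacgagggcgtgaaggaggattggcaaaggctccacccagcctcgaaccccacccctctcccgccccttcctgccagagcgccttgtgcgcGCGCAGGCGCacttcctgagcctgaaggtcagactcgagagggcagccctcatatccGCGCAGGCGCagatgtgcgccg
Atp5k, minus strand, chr5:108434400-108434649: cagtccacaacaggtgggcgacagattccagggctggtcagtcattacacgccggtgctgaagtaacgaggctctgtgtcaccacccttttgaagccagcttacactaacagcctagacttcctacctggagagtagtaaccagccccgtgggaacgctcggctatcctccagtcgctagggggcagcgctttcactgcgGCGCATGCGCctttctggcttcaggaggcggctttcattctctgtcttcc
Mrpl32, minus strand, chr13:14613038-14613287: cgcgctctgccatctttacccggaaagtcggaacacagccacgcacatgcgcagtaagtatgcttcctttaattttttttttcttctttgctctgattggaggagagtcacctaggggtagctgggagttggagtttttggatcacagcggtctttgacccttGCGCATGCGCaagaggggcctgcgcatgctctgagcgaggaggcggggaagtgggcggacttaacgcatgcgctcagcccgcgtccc
Ndufb4 carried 3 matches and the other windows 1 each. Ndufb4 rose from 7.21, 6.04 and 7.78 CPM in the inputs to 34.2, 25.8 and 16.7 CPM in the pulldowns (log2 change 1.86 ± 0.34, edgeR adjusted p = 0.000970) and Mrpl32, of the large mitochondrial subunit and picked for its promoter after its values were seen, from 12, 8.97 and 11.2 CPM in the inputs to 33.9, 30.9 and 23.9 CPM in the pulldowns (log2 change 1.46 ± 0.32, edgeR adjusted p = 0.00342). The message of Nrf1 itself fell from 19.3, 23 and 22.9 CPM in the inputs to 5.62, 3.25 and 8.85 CPM in the pulldowns (log2 change -1.87 ± 0.40, edgeR adjusted p = 0.00285).

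Genes of both ribosomes were more often higher than lower. Of 74 proteins of the mitochondrial ribosome 45 (26 without PreIP_Chat 2, 27 without PreIP_Chat 3) were higher and 0 lower, with a median of 0.93. Mrpl13 rose 3.70-fold (log2 change 1.89 ± 0.32, edgeR adjusted p = 0.000664) and Mrpl54 3.19-fold (log2 change 1.67 ± 0.30, edgeR adjusted p = 0.000871). Of 78 proteins of the cytosolic ribosome 16 (3 without PreIP_Chat 2, 4 without TRAP_Chat 1, 5 without PreIP_Chat 3, 7 without PreIP_Chat 1) were higher and 1 lower, with a median of 0.48, and the one called lower was Rpl10a. Rpl27a, of the large subunit, rose from 29.3, 18.8 and 28.6 CPM in the inputs to 131, 67.7 and 79.0 CPM in the pulldowns (log2 change 1.86 ± 0.32, edgeR adjusted p = 0.000640), and Rpl41, its smallest protein, from 166, 165 and 163 CPM in the inputs to 694, 626 and 306 CPM in the pulldowns (log2 change 1.72 ± 0.33, edgeR adjusted p = 0.00161). Counting can split reads of ribosomal protein genes with their many processed copies, so these values are uncertain.

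Factors named for the start of translation had 10 (3 without PreIP_Chat 2, 4 without PreIP_Chat 1, 6 without TRAP_Chat 2 or PreIP_Chat 3) of 52 higher and 0 lower. Eif5a, which carries hypusine and also stands in the list of elongation and release factors, rose 2.32-fold (log2 change 1.21 ± 0.25, edgeR adjusted p = 0.00274). Eif4a1, an RNA helicase, rose 1.99-fold (log2 change 1.0 ± 0.22, edgeR adjusted p = 0.00408). Aminoacyl-tRNA synthetases had 6 (1 without PreIP_Chat 2, 2 without PreIP_Chat 1, 3 without PreIP_Chat 3) of 38 higher and 1 lower. At the entry to the secretory pathway 6 (2 without PreIP_Chat 2) of 32 genes were higher and 1 lower. Srp19, of the signal recognition particle, rose 2.70-fold, Ostc, of the complex that adds glycans, rose 2.33-fold, and Sec61a1, the pore of the translocon, fell 2.44-fold (log2 change -1.28 ± 0.34, edgeR adjusted p = 0.0111, lost without TRAP_Chat 2). Chaperones of the endoplasmic reticulum had 0 of 29 higher and 1 lower, with a median of 0.04, and 3 higher and 3 lower in the fit of the Chat-line libraries alone.

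The share of genes called higher fell with the length of the coding sequence. Coding lengths from GENCODE M21 were found for 14142 of 14248 tested protein-coding genes (99.3%), which were split into 5 equal groups. In the shortest group, of 93 to 765 bases, 27.5% were higher and 9.40% lower, and in the longest, from 2577 bases, 5.34% were higher and 22.0% lower. The groups between them had 14.3%, 10.8% and 8.17% higher and 12.9%, 14% and 15.7% lower, and the medians fell in order from 0.45 through 0.07, -0.11 and -0.21 to -0.41. In the pulldowns, the median log2 ratio to the input mean was 0.45, 0.39 and 0.39 for the shortest group and -0.49, -0.34 and -0.46 for the longest, while in the inputs both lay between -0.05 and 0.05. The same order of medians, 0.39, 0.17, 0.02, -0.15 and -0.42, held in the Snap25 line.

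This order was also seen within genes of like level. Level was the mean log2 CPM over the 6 Chat-line libraries. As the pulldowns enter that mean, the split is not independent of the calls. With genes split in 3 by level, 47.5% of the shortest group and 8.0% of the longest were higher among the most abundant, and 6.81% and 2.61% among the least abundant. Without the lists of energy supply, protein synthesis and the proteasome the shares were 25.0% and 5.32%. The share higher in the shortest group was 22.5% without TRAP_Chat 1 and 18.1% without PreIP_Chat 2, the lowest of the 6 fits that leave out 1 library. By length of the longest spliced transcript in place of coding length the shares were 24.7% in the shortest group and 6.54% in the longest. Coding length moved with several lists, and its part in their results was not tested. Of the 37 complex I genes 30 were in the shortest group, of which 27 were higher, and of the 74 mitochondrial ribosome genes 50 were in it, of which 36 were higher, against 27.5% of all genes in that group. Of the 78 cytosolic ribosomal protein genes 67 were in it, of which 16 were higher.

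**Figure D3:**
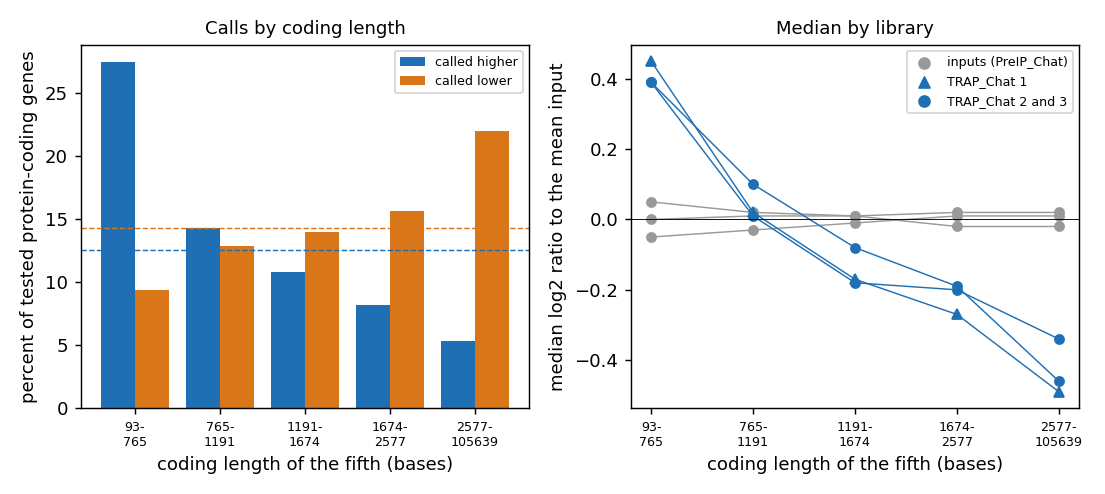
Left, percent of tested protein-coding genes called higher (blue) or lower (orange) in each of 5 groups by coding length, with dashed lines at the 12.6% and 14.3% of all tested genes. Right, median log2 ratio of each group to the mean input in each library (inputs grey, pulldowns blue, TRAP_Chat 1 as triangles). The percent higher falls from 27.5% to 5.34% and the percent lower rises from 9.40% to 22.0%.

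In protein breakdown, genes of the proteasome and of the enzymes that carry ubiquitin were more often higher than lower. Of 48 proteasome genes 21 (8 without PreIP_Chat 2, 9 without PreIP_Chat 1, 11 without PreIP_Chat 3, 12 without TRAP_Chat 1) were higher and 1 lower, with a median of 0.62. Pomp, the maturation factor of the core particle, rose from 244, 238 and 216 CPM in the inputs to 666, 750 and 581 CPM in the pulldowns (log2 change 1.51 ± 0.22, edgeR adjusted p = 0.000196). Enzymes that carry ubiquitin (E2) had 14 (8 without PreIP_Chat 2, 9 without PreIP_Chat 1) of 30 higher and 1 lower. Ube2e2 rose 2.53-fold (log2 change 1.34 ± 0.20, edgeR adjusted p = 0.000288). Proteases that remove ubiquitin had 3 (1 without PreIP_Chat 1 or PreIP_Chat 2 or PreIP_Chat 3) of 45 higher and 6 lower, but 8 higher and 6 lower in the fit of the Chat-line libraries alone. Usp14, which sits on the proteasome, rose 2.05-fold, and Usp54 fell 2.70-fold. Tripartite motif proteins, many of which attach ubiquitin, had 3 of 44 higher and 6 lower, with a median of -0.42. F-box proteins, which bring targets to a ubiquitin ligase, had 10 (4 without PreIP_Chat 2, 6 without PreIP_Chat 1 or PreIP_Chat 3) of 57 higher and 5 lower.

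Autophagy genes had 7 of 33 higher and 3 (0 without PreIP_Chat 3, 1 without TRAP_Chat 1 or TRAP_Chat 2 or PreIP_Chat 1 or PreIP_Chat 2) lower. Map1lc3a, which coats the forming vesicle, rose from 180, 178 and 137 CPM in the inputs to 562, 576 and 442 CPM in the pulldowns (log2 change 1.67 ± 0.24, edgeR adjusted p = 0.000208). Sqstm1, a receptor that brings cargo to it, rose 2.43-fold and Becn1, which starts the process, 2.25-fold. The proton pump of lysosomes had 6 (3 without TRAP_Chat 3 or PreIP_Chat 1 or PreIP_Chat 2) of 19 subunits higher and 0 lower, with Atp6v1f up 2.50-fold. Lysosomal enzymes did not share this, with 2 of 46 higher and 4 (2 without TRAP_Chat 2 or PreIP_Chat 2 or PreIP_Chat 3, 7 without TRAP_Chat 1) lower. Npc1, which exports cholesterol from lysosomes, fell from 125, 113 and 115 CPM in the inputs to 39.1, 25.7 and 28.6 CPM in the pulldowns (log2 change -1.92 ± 0.30, edgeR adjusted p = 0.000324).

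Small heat shock proteins gave the largest rises among chaperones. Of 45 cytosolic chaperone genes 14 (9 without PreIP_Chat 1 or PreIP_Chat 2 or PreIP_Chat 3) were higher and 1 lower. Hspb1 rose from 7.57, 5.76 and 7.30 CPM in the inputs to 96.4, 92.0 and 86.6 CPM in the pulldowns (log2 change 3.74 ± 0.30, edgeR adjusted p = 1.9e-06), a 13.3-fold rise with little spread between libraries. Hspb8 rose from 86.6, 84.7 and 69.9 CPM in the inputs to 430, 630 and 501 CPM in the pulldowns (log2 change 2.69 ± 0.24, edgeR adjusted p = 3.41e-06). Hspb6 rose 5.82-fold, and Bag3, the partner through which Hspb8 sends misfolded proteins to autophagy, rose from 102, 95.9 and 61.7 CPM in the inputs to 192, 393 and 302 CPM in the pulldowns (log2 change 1.77 ± 0.41, edgeR adjusted p = 0.00530). J-domain proteins, which hand clients to Hsp70, had 7 (2 to 4 with any 1 library left out) of 39 higher and 1 lower. Dnajc15, a J protein of mitochondria, rose 3.48-fold and Dnajc1, of the endoplasmic reticulum, fell 7.95-fold.

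**Figure D4:**
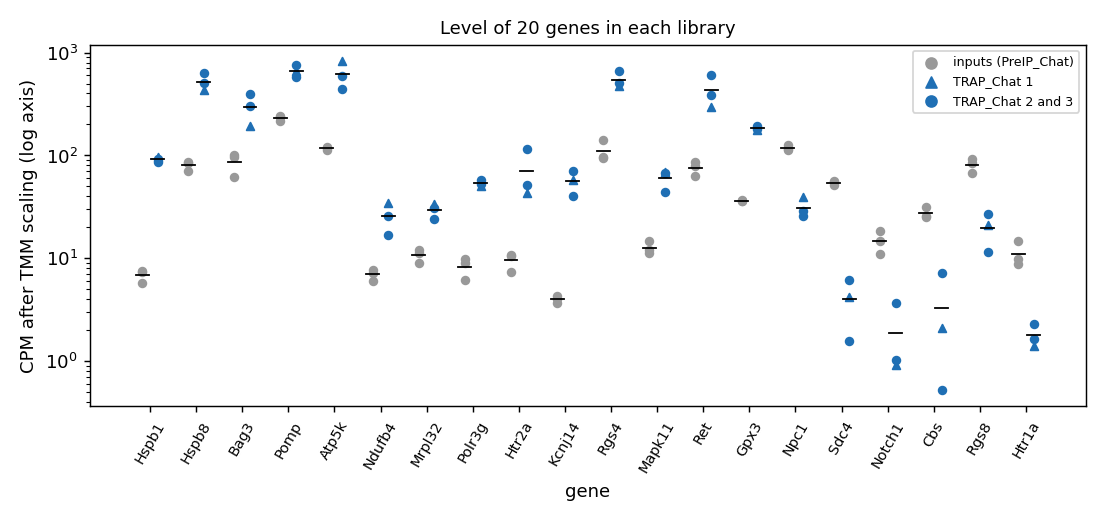
CPM of 20 genes in the 3 inputs (grey) and 3 pulldowns (blue, TRAP_Chat 1 as a triangle) on a log axis, with genes called higher first and genes called lower last. Points are libraries and short bars are group means. Hspb1, Polr3g, Htr2a and Kcnj14 lie higher in every pulldown than in every input, and Npc1, Sdc4, Notch1 and Cbs lower.

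Genes of secreted peptides moved far in both directions. Of 40 tested precursors 10 were higher and 7 (4 without PreIP_Chat 1 or PreIP_Chat 2) lower. Uts2, which encodes urotensin 2, rose from 6.53, 4.82 and 3.12 CPM in the inputs to 130, 175 and 72.1 CPM in the pulldowns, and Uts2b, a related peptide, from 1.40, 1.66 and 2.17 CPM in the inputs to 27.5, 23.6 and 28.3 CPM in the pulldowns. Cartpt, the precursor of CART peptides, rose from 12.1, 13.9 and 15.7 CPM in the inputs to 267, 180 and 206 CPM in the pulldowns. These rises were 26.0-fold, 15.1-fold and 15.6-fold, with edgeR adjusted p = 5.84e-06, 6.96e-06 and 3.41e-06. Npy, or neuropeptide Y, fell from 9.65, 11.1 and 7.83 CPM in the inputs to 1.54, 0.151 and 0.989 CPM in the pulldowns (log2 change -3.37 ± 0.56, edgeR adjusted p = 0.000539), and in TRAP_Chat 2 it was under the CPM of 3 counts. Other genes among the 15 largest rises were Amhr2, the receptor of anti-Müllerian hormone, from 0.366, 1.61 and 1.9 CPM in the inputs to 25.6, 25.4 and 20.5 CPM in the pulldowns, Rasl10a, a small GTPase of the Ras branch, from 1.04, 1.72 and 1.53 CPM in the inputs to 19.7, 23.8 and 21.1 CPM in the pulldowns, Slc10a4, a protein of cholinergic vesicles, from 16.7, 18.4 and 11.7 CPM in the inputs to 196, 257 and 208 CPM in the pulldowns, Scx, a transcription factor best known from tendon, from 5.01, 2.82 and 4.23 CPM in the inputs to 70.9, 38.2 and 40.4 CPM in the pulldowns, and Fabp2, a fatty acid binding protein of the gut, from 2.38, 0.498 and 0.635 CPM in the inputs to 31.0, 4.99 and 6.72 CPM in the pulldowns. Fabp2 was uneven, with TRAP_Chat 1 more than 4 times the other pulldowns.

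Receptors and channels had called genes in both directions. Among potassium channel genes 14 of 78 were higher and 11 (6 without TRAP_Chat 2 or PreIP_Chat 2, 7 without PreIP_Chat 1 or PreIP_Chat 3) lower. Kcnj14, an inward rectifier of motor neurons, rose from 3.66, 3.99 and 4.34 CPM in the inputs to 58.4, 40.7 and 70.2 CPM in the pulldowns (log2 change 3.82 ± 0.36, edgeR adjusted p = 6.12e-06). Kcng4, a silent subunit that modifies other channels, rose 5.98-fold and Kcnmb4, an auxiliary subunit of calcium-activated channels, 6.26-fold. Kcnj10, the inward rectifier of astrocytes and oligodendrocytes, fell from 367, 297 and 450 CPM in the inputs to 114, 36.9 and 76.5 CPM in the pulldowns (log2 change -2.30 ± 0.37, edgeR adjusted p = 0.000407). Among monoamine receptors 5 (2 without PreIP_Chat 1 or PreIP_Chat 2, 3 without TRAP_Chat 2 or TRAP_Chat 3 or PreIP_Chat 3) of 26 were higher and 4 (2 without TRAP_Chat 1 or PreIP_Chat 1 or PreIP_Chat 3) lower. Htr2a, a serotonin receptor, rose from 10.5, 10.7 and 7.46 CPM in the inputs to 43.3, 115 and 52.1 CPM in the pulldowns (log2 change 2.88 ± 0.38, edgeR adjusted p = 9.04e-05), whereas Htr1a, another one, fell from 8.79, 14.6 and 9.79 CPM in the inputs to 1.42, 1.66 and 2.29 CPM in the pulldowns (log2 change -2.62 ± 0.36, edgeR adjusted p = 0.000129). Chrm2, a muscarinic acetylcholine receptor, rose 2.76-fold (log2 change 1.46 ± 0.29, edgeR adjusted p = 0.00195) and Chrna4, a nicotinic subunit, fell 2.73-fold (log2 change -1.45 ± 0.25, edgeR adjusted p = 0.000696). Glutamate receptors had 1 of 25 higher and 5 (3 without TRAP_Chat 2) lower, with Gria1, an AMPA receptor subunit, down 2.64-fold. Their median log2 fold change was 0.11, with 13 above 0 and 12 below. All 25 were in the longest group by coding length, where 5.34% of all genes were higher and 22.0% lower, shares near those of the list.

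So did proteins that pass signals on from receptors. G protein subunits had 6 of 31 higher and 5 lower. Gna14, an alpha subunit of the Gq class, rose from 4.58, 7.20 and 6.93 CPM in the inputs to 54.8, 69.7 and 61.1 CPM in the pulldowns (log2 change 3.31 ± 0.38, edgeR adjusted p = 3.02e-05), and Gng4 rose 3.39-fold, while Gng11 fell 6.07-fold. Regulators of G protein signalling had 7 (4 without PreIP_Chat 1) of 17 higher and 5 (2 without PreIP_Chat 2, 3 without TRAP_Chat 3) lower. Rgs4 rose from 96.5, 95.2 and 142 CPM in the inputs to 472, 503 and 660 CPM in the pulldowns (log2 change 2.29 ± 0.24, edgeR adjusted p = 1.56e-05), and Rgs8 fell from 93.2, 67.0 and 83.9 CPM in the inputs to 21.1, 11.6 and 26.9 CPM in the pulldowns (log2 change -2.03 ± 0.31, edgeR adjusted p = 0.000266). Among MAP kinases and the kinases above them 9 of 40 were higher and 4 lower. Mapk11, the p38 beta kinase, rose from 12, 14.9 and 11.3 CPM in the inputs to 68.7, 67.9 and 43.9 CPM in the pulldowns (log2 change 2.24 ± 0.29, edgeR adjusted p = 8.28e-05), and Map4k4 fell 3.14-fold. Of 25 calmodulin and calmodulin kinase genes 6 (3 without PreIP_Chat 2) were higher and 7 (4 without TRAP_Chat 1 or PreIP_Chat 2) lower, with Calm2 up 3.26-fold and Camk2a, a kinase of excitatory synapses, down 3.33-fold (log2 change -1.73 ± 0.28, edgeR adjusted p = 0.000451). S100 and other EF-hand calcium sensors had 10 higher and 10 lower of 36. S100a10 rose from 36.2, 38.5 and 37 CPM in the inputs to 259, 378 and 186 CPM in the pulldowns (log2 change 2.88 ± 0.34, edgeR adjusted p = 3.85e-05) and S100a16 fell 6.47-fold.

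Tubulins and the dynein motor had many members called higher, and myosins few. Tubulins had 6 of 14 higher and 0 lower, with Tubb4b up 2.52-fold. Cytoplasmic dynein and dynactin, the motor toward the cell body, had 10 of 24 higher and 1 lower. Dynlrb1, a light chain, rose from 558, 417 and 472 CPM in the inputs to 1490, 1803 and 1093 CPM in the pulldowns (log2 change 1.60 ± 0.25, edgeR adjusted p = 0.000331), and Nde1, a regulator of the motor, fell 5.27-fold (log2 change -2.40 ± 0.48, edgeR adjusted p = 0.00190), while its close relative Ndel1 rose 2.80-fold (log2 change 1.48 ± 0.26, edgeR adjusted p = 0.000718). Kinesins had 4 (2 without PreIP_Chat 1 or PreIP_Chat 2) of 41 higher and 4 lower. Klc1, a light chain of kinesin 1, rose 2.38-fold and Kif13b fell 6.22-fold. Myosins had 1 of 30 higher and 8 (5 without TRAP_Chat 3 or PreIP_Chat 2) lower, and Myo16 fell from 40.1, 37.5 and 37.8 CPM in the inputs to 9.58, 4.53 and 8.69 CPM in the pulldowns (log2 change -2.33 ± 0.31, edgeR adjusted p = 9.05e-05). All 30 myosins were in the longest group by coding length, where 5.34% of all genes were higher and 22.0% lower. Of the 24 dynein and dynactin genes 11 were in the shortest group, 6 of them higher, against 27.5% of all genes there. No tubulin was in either group. Neither the difference between these lists nor that between their shares and the background was tested, nor was the part of length.

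Small GTPases of the Ras branch and those that steer vesicles were more often higher than lower. Of 29 Ras-branch GTPases 9 (5 without PreIP_Chat 2) were higher and 2 (0 without TRAP_Chat 3 or PreIP_Chat 1, 1 without TRAP_Chat 2 or PreIP_Chat 2 or PreIP_Chat 3) lower, with Gem up 6.14-fold and Hras up 2.46-fold. Rab GTPases, which steer vesicles, had 10 of 54 higher and 6 (2 without PreIP_Chat 2 or PreIP_Chat 3, 3 without PreIP_Chat 1) lower. In the shortest group by coding length stood 48 of the Rab genes, 10 of them higher and 5 lower. It also held 23 of the Ras-branch genes, 8 of them higher and 2 lower. Over all genes of that group 27.5% were higher and 9.40% lower, and the part of length was not tested. Rab3b, of secretory vesicles, rose from 92.0, 71.8 and 66.3 CPM in the inputs to 320, 405 and 402 CPM in the pulldowns (log2 change 2.29 ± 0.25, edgeR adjusted p = 1.74e-05), and Rab31 fell 4.57-fold. Among SNARE proteins, which fuse membranes, Vamp1 rose from 1277, 1140 and 1246 CPM in the inputs to 3225, 4343 and 4162 CPM in the pulldowns (log2 change 1.68 ± 0.23, edgeR adjusted p = 0.000129) and Vamp3 fell 4.37-fold, and 5 (3 without TRAP_Chat 3 or PreIP_Chat 1 or PreIP_Chat 2) of 42 were higher and 6 lower. Snx10, of endosomes, rose 4.33-fold and Dnm2, the dynamin found in most tissues, fell 4.32-fold.

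Genes of developmental signalling pathways were more often lower than higher. The TGF-beta and BMP pathway had 1 of 37 higher, Amhr2, and 12 (6 without PreIP_Chat 3, 7 without TRAP_Chat 2 or PreIP_Chat 2) lower. Smad7, which dampens the pathway, fell from 73.0, 74.0 and 46.0 CPM in the inputs to 10.4, 8.61 and 11.1 CPM in the pulldowns (log2 change -2.67 ± 0.43, edgeR adjusted p = 0.000439), and Bmp4, a ligand, 6.56-fold. The Notch pathway had 0 of 26 higher and 9 lower, and the receptor Notch1 fell from 18.5, 14.8 and 11.1 CPM in the inputs to 0.927, 3.70 and 1.04 CPM in the pulldowns (log2 change -2.99 ± 0.53, edgeR adjusted p = 0.000813). The Wnt and Hedgehog pathways had 4 of 57 higher and 16 (9 without TRAP_Chat 2 or PreIP_Chat 2, 10 without PreIP_Chat 1) lower, with a median of -1.02. Rspo2, a secreted agonist of Wnt signalling, rose from 1.47, 3.43 and 1.75 CPM in the inputs to 21.9, 22.7 and 24.2 CPM in the pulldowns (log2 change 3.37 ± 0.38, edgeR adjusted p = 2.78e-05), and Hhip, which binds Hedgehog ligands, fell 7.73-fold. Of 35 growth factor and cytokine receptors 5 were higher and 11 lower. Ret, the receptor subunit for GDNF family ligands, rose from 86.8, 78.4 and 63.3 CPM in the inputs to 297, 601 and 391 CPM in the pulldowns (log2 change 2.50 ± 0.29, edgeR adjusted p = 3.2e-05), Lifr, for leukemia inhibitory factor, rose 2.21-fold, and Erbb3 and Erbb4, which bind neuregulins, fell 6.40-fold and 6.61-fold. Glial markers fell with these lists in every pulldown, as given above (oligodendrocytes to 11.1% to 29.3% and astrocytes to 30.8% to 45.3% of the input), and their part in the result was not tested.

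Genes of the matrix outside cells and of adhesion to it were also more often lower. Collagens had 1 of 38 higher and 14 (7 without PreIP_Chat 2, 9 without PreIP_Chat 1) lower, laminins, nidogens and integrins 3 (1 without PreIP_Chat 1 or PreIP_Chat 3) of 34 higher and 11 lower, and proteoglycans 1 of 29 higher and 12 lower. Sdc4, a syndecan, fell from 55.7, 56.3 and 51.8 CPM in the inputs to 4.26, 1.59 and 6.14 CPM in the pulldowns (log2 change -3.75 ± 0.56, edgeR adjusted p = 0.000228), and Lamb2, a laminin chain, fell from 12.4, 13.7 and 6.82 CPM in the inputs to 1.05, 0.529 and 1.15 CPM in the pulldowns (log2 change -3.57 ± 0.52, edgeR adjusted p = 0.000202). Vcan, or versican, fell 5.11-fold. Against this, Itga3, an integrin that binds laminins, rose from 29.1, 24.8 and 20.8 CPM in the inputs to 53.6, 88.6 and 69.7 CPM in the pulldowns (log2 change 1.5 ± 0.31, edgeR adjusted p = 0.00229), and Gpc1, a glypican, rose 2.59-fold (log2 change 1.37 ± 0.39, edgeR adjusted p = 0.0155, lost without PreIP_Chat 3). Among guidance cues Slit3 rose from 22.0, 19.9 and 18.1 CPM in the inputs to 52.7, 126 and 92.5 CPM in the pulldowns (log2 change 2.18 ± 0.32, edgeR adjusted p = 0.000202) and Sema3a 3.46-fold, while Plxnb1, a receptor of class 4 semaphorins, fell from 77.1, 59.2 and 82.7 CPM in the inputs to 11.4, 3.48 and 9.01 CPM in the pulldowns (log2 change -3.19 ± 0.53, edgeR adjusted p = 0.000562). Of tetraspanins 4 were higher and 7 lower of 23, with Tspan18 up 5.20-fold and Cd9 down 5.10-fold. Protein tyrosine phosphatases had 1 of 33 higher and 11 (7 without TRAP_Chat 3 or PreIP_Chat 3) lower, among them Ptpre, down 3.36-fold. The summed markers of vessels and meningeal fibroblasts fell to 29.4, 18.6 and 12.5% of the input mean in the same pulldowns, and their part in the result was not tested. The inputs themselves were uneven for these markers, at 86.0, 152 and 61.7% of their mean. Of the 17 markers 8 were lower (3 to 11 with 1 library left out).

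In the nucleus, genes that modify chromatin were more often lower, and subunits of the transcription machinery more often higher. Lysine methyltransferases and demethylases had 2 of 62 higher and 14 (8 without TRAP_Chat 2 or PreIP_Chat 2, 9 without PreIP_Chat 1) lower, with a median of -0.55, and chromatin remodellers 0 of 44 higher and 11 (6 without TRAP_Chat 3, 7 without PreIP_Chat 2) lower. The longest group by coding length held 37 of the 62, with 11 of the falls, and 32 of the 44, with 10 of the falls. Over all genes of that group 22.0% were lower. Dot1l, a histone H3 methyltransferase, fell from 54.3, 44.8 and 44.5 CPM in the inputs to 12, 11.2 and 15 CPM in the pulldowns (log2 change -1.91 ± 0.29, edgeR adjusted p = 0.000309), and Chd7, a remodeller, fell 3.16-fold (log2 change -1.66 ± 0.40, edgeR adjusted p = 0.00671). Zinc finger genes named Zfp, Zscan and alike had 6 (2 without TRAP_Chat 3 or PreIP_Chat 2 or PreIP_Chat 3, 3 without TRAP_Chat 2 or PreIP_Chat 1) of 391 higher and 43 (25 without TRAP_Chat 2, 27 without PreIP_Chat 3) lower, which is below the 12.6% and the 14.3% of all genes. RNA polymerase subunits had 7 of 28 higher and 2 (1 without TRAP_Chat 1 or TRAP_Chat 2 or PreIP_Chat 1 or PreIP_Chat 2) lower. Polr3g, of RNA polymerase III, rose from 6.1, 9.08 and 9.84 CPM in the inputs to 50.9, 53.2 and 58.2 CPM in the pulldowns (log2 change 2.69 ± 0.32, edgeR adjusted p = 3.85e-05), and Polr1d, shared by polymerases I and III, rose 3.54-fold. Mediator, the bridge between factors and polymerase II, had 7 (4 without PreIP_Chat 2) of 32 higher and 3 lower, with Med21 up 3.01-fold and Cdk19, of its kinase module, down 3.34-fold. The shortest group held 14 polymerase genes, 5 of them higher, and 13 Mediator genes, 6 of them higher, against 27.5% of all genes there. The part of length in the contrast between these lists was not tested. Ptbp1, a splicing repressor that neurons are known to shut off, fell 3.34-fold (log2 change -1.74 ± 0.38, edgeR adjusted p = 0.00359).

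Transcription factors of development were more often lower than higher. Of 66 LIM, POU, SOX and forkhead factors 8 were higher and 28 (18 without PreIP_Chat 1) lower, with a median of -1.28. Isl2, a motor neuron factor, rose from 0.550, 1.66 and 1.48 CPM in the inputs to 12.7, 20.2 and 21.3 CPM in the pulldowns, and Sox10, of the oligodendrocyte lineage, fell from 395, 337 and 266 CPM in the inputs to 104, 35.2 and 42.7 CPM in the pulldowns. Summed markers of oligodendrocytes and of inhibitory neurons were at 29.3, 11.1 and 15.8% and 28.9, 15.2 and 30.1% of the input mean, and their part in these falls was not tested. Foxo6 rose 5.13-fold (log2 change 2.36 ± 0.45, edgeR adjusted p = 0.00143). Hox genes had 2 of 37 higher and 9 (5 without PreIP_Chat 3) lower. Hoxc5 rose from 2.08, 2.49 and 3.65 CPM in the inputs to 7.48, 17.1 and 20 CPM in the pulldowns (log2 change 2.43 ± 0.45, edgeR adjusted p = 0.00111), and Hoxb8 fell from 159, 151 and 114 CPM in the inputs to 55.1, 59.8 and 34.4 CPM in the pulldowns (log2 change -1.51 ± 0.27, edgeR adjusted p = 0.000883). Nuclear receptors split evenly, with 6 of 34 higher and 6 (3 without TRAP_Chat 2 or PreIP_Chat 2) lower, and Vdr, the vitamin D receptor, rose from 6.78, 6.26 and 5.61 CPM in the inputs to 51.8, 48.5 and 52.4 CPM in the pulldowns (log2 change 3.03 ± 0.51, edgeR adjusted p = 0.000610). Clock genes had 2 of 20 higher and 8 (5 without TRAP_Chat 2 or TRAP_Chat 3 or PreIP_Chat 1) lower. Per2 and Per3, repressors of the clock, fell 4.16-fold and 3.90-fold. The labels give no time of day. Immediate early genes had 2 of 24 higher and 6 lower, with Egr1 down 3.29-fold and Dusp1 up 2.54-fold.

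Among genes of lipid and amino acid supply the balance differed from list to list. Fatty acid synthesis and elongation had 5 (2 without TRAP_Chat 3 or PreIP_Chat 1 or PreIP_Chat 2, 3 without TRAP_Chat 1) of 27 higher and 11 (7 without PreIP_Chat 3) lower. Acly, which makes the acetyl-CoA of the cytosol, rose from 220, 174 and 147 CPM in the inputs to 709, 1078 and 776 CPM in the pulldowns (log2 change 2.25 ± 0.26, edgeR adjusted p = 3.47e-05), whereas Scd2, a desaturase of the brain, fell from 1359, 1045 and 1465 CPM in the inputs to 426, 293 and 534 CPM in the pulldowns (log2 change -1.63 ± 0.30, edgeR adjusted p = 0.00126). Cholesterol synthesis had 0 of 26 higher and 4 (2 without TRAP_Chat 2 or TRAP_Chat 3 or PreIP_Chat 1 or PreIP_Chat 3) lower, with Lss down 4.71-fold. Fatty acid oxidation had 3 (1 without PreIP_Chat 1 or PreIP_Chat 2) of 25 higher and 2 (0 to 1 with any 1 library left out) lower, and Cpt1a, the liver-type gatekeeper of mitochondrial entry, rose from 23.3, 22.3 and 27.6 CPM in the inputs to 64.5, 73.1 and 90.2 CPM in the pulldowns (log2 change 1.64 ± 0.25, edgeR adjusted p = 0.000257). Serine and one-carbon metabolism had 2 of 23 higher and 9 (5 without PreIP_Chat 2) lower. Cbs, which joins serine to homocysteine, fell from 31.7, 25.1 and 25.8 CPM in the inputs to 2.10, 0.529 and 7.24 CPM in the pulldowns (log2 change -3.04 ± 0.58, edgeR adjusted p = 0.00140), and Phgdh, the first step of serine synthesis, fell 5.95-fold. Urea, polyamine and glutamate metabolism had 4 (1 without PreIP_Chat 2, 2 without PreIP_Chat 1 or PreIP_Chat 3) of 24 higher and 2 (1 without TRAP_Chat 2 or TRAP_Chat 3 or PreIP_Chat 1 or PreIP_Chat 2 or PreIP_Chat 3) lower, with a median of 0.28. Transporters of amino acids and organic solutes had 4 of 43 higher and 16 lower, with Slc7a8 up 4.00-fold (log2 change 2.0 ± 0.34, edgeR adjusted p = 0.000659) and Slc6a9, a glycine transporter, down 7.50-fold (log2 change -2.91 ± 0.46, edgeR adjusted p = 0.000398). Genes of zinc, iron and copper handling had 3 of 39 higher and 15 (9 without PreIP_Chat 2 or PreIP_Chat 3) lower. Atox1, a copper chaperone, rose 3.5-fold (log2 change 1.81 ± 0.31, edgeR adjusted p = 0.000640), and Fth1 and Ftl1, the chains of ferritin, fell 3.78-fold and 7.79-fold. The glial marker levels given above fell beside these lists, and their part was not tested.

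Genes of defence against oxidation were more often higher than lower. Of 38 genes 12 (7 without PreIP_Chat 1 or PreIP_Chat 2 or PreIP_Chat 3) were higher and 5 lower. Gpx3, a secreted glutathione peroxidase, rose from 36.1, 37 and 36.5 CPM in the inputs to 178, 193 and 179 CPM in the pulldowns (log2 change 2.33 ± 0.24, edgeR adjusted p = 1.33e-05), and Txn1, or thioredoxin, rose from 83.6, 67.6 and 69.4 CPM in the inputs to 392, 349 and 354 CPM in the pulldowns (log2 change 2.31 ± 0.25, edgeR adjusted p = 1.74e-05). Srxn1, which restores peroxiredoxins, rose 2.46-fold. Glutathione transferases Gstm1 and Gstm7 fell 3.51-fold and 3.48-fold, and near-identical members of their family may share reads with them. Genes of complement and Fc receptors had 2 of 15 higher and 8 (5 without PreIP_Chat 2) lower. Cd55 and Cd59a, which protect cells from complement, rose 6.10-fold (log2 change 2.61 ± 0.37, edgeR adjusted p = 0.000153) and 3.78-fold (log2 change 1.92 ± 0.25, edgeR adjusted p = 8.33e-05), and among the genes called lower C1qb and C3, components of the cascade, fell 7.95-fold and 2.98-fold. The summed microglia markers were at 26.7, 16.7 and 19.7% of the input mean, and their part in the fall was not tested.

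Transcripts of mitochondria and several structured RNAs were lower. Transcripts of the mitochondrial genome had 0 of 18 higher and 12 (6 without TRAP_Chat 3, 7 without TRAP_Chat 2 or PreIP_Chat 1 or PreIP_Chat 2, 17 without TRAP_Chat 1) lower. Their median log2 fold change was -2.72, and -5.24 without TRAP_Chat 1. mt-Nd6, a complex I subunit that mitochondria encode, fell from 204, 114 and 173 CPM in the inputs to 13.1, 1.51 and 1.41 CPM in the pulldowns (log2 change -4.94 ± 0.75, edgeR adjusted p = 0.000285), opposite to the nuclear-encoded subunits of the same complex. TRAP_Chat 1 held far more of it than the other pulldowns. The share of counts from nuclear protein-coding genes rose from 59.6%, 58.3% and 71.4% in the inputs to 83.7%, 79.0% and 91.2% in the pulldowns, without overlap (exact permutation test, two-sided, p = 0.10, the smallest that 3 against 3 libraries allow). Long noncoding RNAs held 12.6%, 13.5% and 4.26% against 8.66%, 18.8% and 7.63% of counts, which overlap (exact permutation test, two-sided, p = 0.800). The class of all small and structured noncoding RNAs did not fall as a share of counts. It held 1.55%, 1.45% and 0.562% in the inputs against 0.464%, 1.70% and 0.662% in the pulldowns (exact permutation test, two-sided, p = 0.900). Small nuclear, nucleolar and other structured RNAs had 0 of 17 higher and 6 (3 without TRAP_Chat 2 or TRAP_Chat 3 or PreIP_Chat 1, 8 without TRAP_Chat 1) lower. Rn7sk, which holds back elongation by polymerase II, fell from 1230, 713 and 419 CPM in the inputs to 320, 63.9 and 60.9 CPM in the pulldowns (log2 change -2.41 ± 0.54, edgeR adjusted p = 0.00422), and Rmrp, the RNA of an enzyme that cuts ribosomal RNA, from 24.9, 21.5 and 6.19 CPM in the inputs to 1.30, 0.378 and 0.156 CPM in the pulldowns (log2 change -4.84 ± 0.79, edgeR adjusted p = 0.000490). In both the lowest input was the third, and Rmrp in TRAP_Chat 3 was near the CPM of 3 counts. Of 453 long intergenic RNAs tested 54 were higher (11.9%) and 67 lower (14.8%), shares like those of all genes, and of 414 processed pseudogenes 11 were higher and 4 lower. Malat1, a nuclear RNA, fell from 4278, 4716 and 5772 CPM in the inputs to 982, 102 and 305 CPM in the pulldowns (log2 change -3.41 ± 0.79, edgeR adjusted p = 0.00506).

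At the largest scale of abundance, the called genes with the highest mean level that rose included Nefl and Nefm, the light and medium chains of neurofilaments, at 7646, 6683 and 9910 CPM and 6428, 8203 and 9329 CPM in the pulldowns against 2508, 1872 and 2276 CPM and 2684, 1928 and 2264 CPM in the inputs. Those that fell included Mbp, a protein of myelin, at 2355, 636 and 1093 CPM against 10201, 6493 and 7821 CPM, and Fth1, at 1962, 991 and 985 CPM against 5579, 4500 and 4811 CPM. TRAP_Chat 1 held the most Mbp and Fth1 among the pulldowns. The largest falls outside the lists named so far included Nkx2-2, a factor of the oligodendrocyte lineage, which fell from 22.8, 16.4 and 12.5 CPM in the inputs to 2.04, 0.453 and 1.56 CPM in the pulldowns (log2 change -3.64 ± 0.51, edgeR adjusted p = 0.000140), and Ppp1r14a, an inhibitor of protein phosphatase 1, from 20, 19.6 and 16.6 CPM in the inputs to 1.48, 0.378 and 1.41 CPM in the pulldowns (log2 change -4.07 ± 0.78, edgeR adjusted p = 0.00146).

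Whether a change was particular to the Chat line was asked with the interaction of line and pulldown in the same fit. The change from input to pulldown was larger (more positive) in the Chat line for 96 genes (0.604% of those tested) and smaller for 70 (0.440%). Without PreIP_Chat 1, 2 or 3 these counts were 48, 26 and 46 larger and 40, 26 and 46 smaller. No gene of the energy lists or the ribosome lists was among them, and the medians of complex III were 1.11 in the Chat line and 1.12 in the Snap25 line, those of the mitochondrial ribosome 0.93 and 0.90, those of the proteasome 0.62 and 0.59, those of cytosolic ribosomal proteins 0.48 and 0.16, those of glycolysis 0.05 and 0.54 and those of collagens -1.39 and -1.97. The median over members of the difference, Chat minus Snap25, was -0.26 for complex III and -0.50 for glycolysis. A gene that missed this threshold is not shown to move alike in the lines. The lines did differ for 2 cytosolic chaperones, Hspb1 (difference of the log2 changes 2.48 ± 0.39, edgeR adjusted p = 0.00689) and Hspb8 (1.95 ± 0.32, edgeR adjusted p = 0.00802). They differed for Polr3g (2.28 ± 0.43, edgeR adjusted p = 0.0143), Kcnj14 (2.79 ± 0.47, edgeR adjusted p = 0.00869), Gpx3 (1.95 ± 0.33, edgeR adjusted p = 0.00855) and Cpt1a (2.14 ± 0.35, edgeR adjusted p = 0.00768), whose log2 fold changes in the Snap25 line were 0.41, 1.03, 0.37 and -0.50. In the other direction the lines differed for Htr1a (-2.71 ± 0.48, edgeR adjusted p = 0.0104), Chrna4 (-2.41 ± 0.35, edgeR adjusted p = 0.00551), Rgs8 (-2.39 ± 0.42, edgeR adjusted p = 0.0100), Myo16 (-2.70 ± 0.42, edgeR adjusted p = 0.00671), Hoxb8 (-2.22 ± 0.38, edgeR adjusted p = 0.00855) and Npy (-4.45 ± 0.74, edgeR adjusted p = 0.00855), which fell in the Chat line and had log2 fold changes of 0.09, 0.96, 0.36, 0.37, 0.72 and 1.08 in the Snap25 line. The call of Polr3g was lost without PreIP_Chat 1 or 2 and that of Htr1a without PreIP_Chat 2, while the others of these 12 genes kept theirs under all 19 alternatives.

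**Figure D5:**
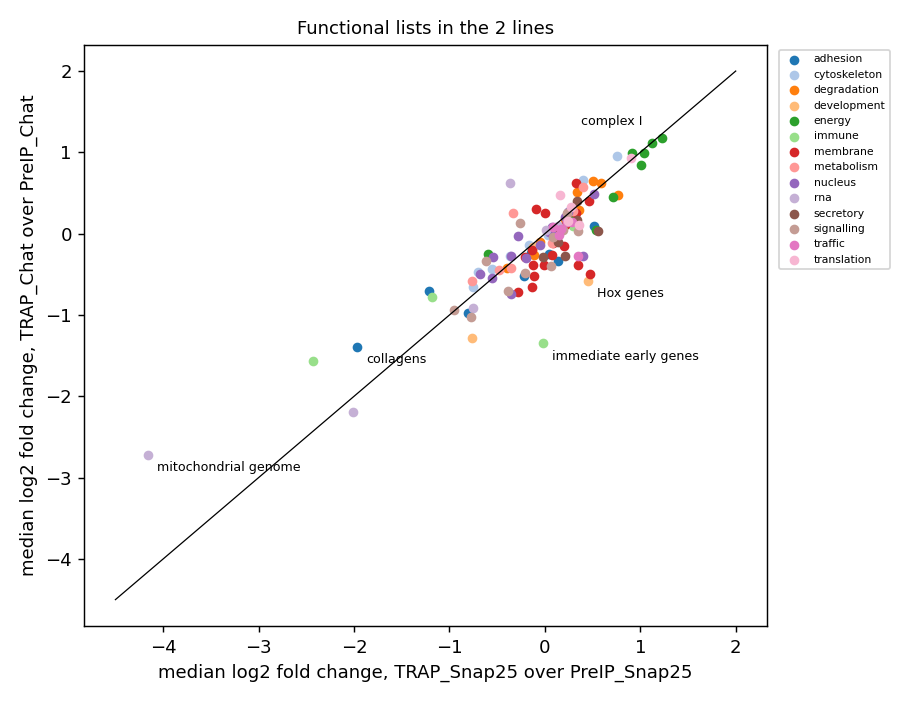
Median log2 fold change from input to pulldown of each of the 121 functional lists in the Snap25 line (x axis) and the Chat line (y axis), with a line of equal values. Points are lists, coloured by theme, and the lines share no library. The collagens lie at -1.97 and -1.39, and the Hox genes lie below the line of equal values at 0.45 and -0.58.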

How the data were processed

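RNA of whole spinal cord (input) and of the ribosome pulldown was amplified (Nugen Ovation RNA-Seq V2) and sequenced on a HiSeq2500, per the labels' protocols. The authors deposited raw read counts per gene. STAR and HTSeq are named in the submitters' processing notes. For their versions, the genome build, the annotation and the use of strand, the entry is: not given in the sources used here. The table held 41736 lines, of which 824 were exact repeats and were dropped, leaving 40912 gene IDs.

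Counts were tested with the edgeR 4.0.16 quasi-likelihood test in R 4.3.3 (filterByExpr, TMM scaling, 1 mean for each of the 4 groups over 12 libraries, two-sided), with Benjamini-Hochberg adjustment over 15905 genes and a threshold of 0.05. The change in the Snap25 line and the difference between the lines came from the same fit. Alternatives used DESeq2 1.42.0, limma 3.58.1 (voom), other filters and scalings, the Chat-line libraries alone, a replicate block, and each library left out in turn. The test was checked on simulated data that gave each gene the same spread in all groups. That check does not cover the unequal spread of TRAP_Chat and PreIP_Chat (0.479 and 0.231). Replicates are separate samples by their labels, which do not say that they are separate animals, so p-values measure the spread between these samples only, which may be technical. No replicates agreed within sampling noise.

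Gene lists are described by counts of called genes and medians, with no test of the list. The genes named are Chat and Rpl10a, the 15 largest rises and falls with a mean of at least 5 CPM and no overlap between groups, the 10 called genes of highest mean in each direction, and up to 4 called genes per list and direction. Other list members may be named with their values. A few results that this rule would name are not reported here. Members and lists were chosen with earlier results of these data known. Coding length is the longest summed coding sequence of a gene in GENCODE M21, used in place of protein length. Promoters are from RefSeq (GRCm38.p6).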

Additional observations from a re-analysis of the deposited data

Results flagged for a closer look

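Of the genes named above, 27 changed differently from input to pulldown in the Chat line than in the Snap25 line by the interaction of line and pulldown (edgeR adjusted p below 0.05). The difference in log2 fold change, Chat minus Snap25 with its SE, was positive for Cartpt (2.22 ± 0.45), Cd59a (1.56 ± 0.34), Chat (2.21 ± 0.41), Cpt1a (2.14 ± 0.35), Foxo6 (2.79 ± 0.63), Gna14 (2.35 ± 0.51), Gpx3 (1.95 ± 0.33), Hspb1 (2.48 ± 0.39), Hspb8 (1.95 ± 0.32), Kcnj14 (2.79 ± 0.47), Mapk11 (1.73 ± 0.40), Nefl (1.61 ± 0.36), Nefm (1.87 ± 0.36), Polr3g (2.28 ± 0.43), Rgs4 (1.52 ± 0.33), S100a10 (2.32 ± 0.46), Slc10a4 (2.39 ± 0.37), Tspan18 (2.07 ± 0.38), Uts2 (2.46 ± 0.56) and Uts2b (2.69 ± 0.50). It was negative for Chrna4 (-2.41 ± 0.35), Erbb4 (-1.84 ± 0.39), Hoxb8 (-2.22 ± 0.38), Htr1a (-2.71 ± 0.48), Myo16 (-2.70 ± 0.42), Npy (-4.45 ± 0.74) and Rgs8 (-2.39 ± 0.42). The edgeR adjusted p ran from 0.00551 to 0.0454. The calls of Chrna4, Cpt1a, Gpx3, Hoxb8, Hspb1, Hspb8, Kcnj14, Myo16, Npy, Rgs8 and Slc10a4, 11 genes, held under all 19 alternatives. The calls of the other 16 were lost under at least 1 of them, most often when a single library was left out, with Mapk11 and Uts2 keeping theirs in 9 of 19. Groups of 3 libraries are too small for a test of single outlying samples.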

How the results depend on the processing

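The number of genes higher in the pulldown ran from 1191 to 1767 and the number lower from 1547 to 2199 with 1 Chat-line library left out. Inputs mattered most for the genes higher, with 1314, 1191 and 1315 without PreIP_Chat 1, 2 and 3. DESeq2 gave 2365 higher and 2664 lower, and dropping the filter on low counts 1975 and 2781. For the difference between the lines the counts ran from 26 to 152 larger and from 26 to 97 smaller with 1 library left out, the highest without TRAP_Snap25 3. DESeq2 gave 292 larger and 209 smaller, no filter 269 and 184, and limma voom 106 smaller. The cause of these changes was not tested.

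Input and pulldown libraries share replicate numbers, and the deposited descriptions of same-numbered libraries end in the same code, whose meaning is not stated. Deviations of same-numbered libraries correlated at 0.06, 0.10 and 0.13 and of others at -0.10 to -0.02, which does not establish pairing, although every input correlated best with its own number. With the replicate block 2420 genes were higher and 2687 lower of 14905, with 3 and 5 of 19 glycolysis genes, 4 and 4 of 29 chaperones of the endoplasmic reticulum and 10 and 6 of 45 proteases that remove ubiquitin, and for the difference between the lines 118 were larger and 88 smaller.

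The percent of the shortest genes called higher was 32.9% with 10 groups, 24.7% by transcript length, 34.0% with the replicate block, 25.0% without the energy, translation and proteasome lists, and 18.1% to 25.8% with 1 library left out; all but the first were chosen after seeing the data. The difference in the share of mitochondrial ribosomal RNA, -22.5 percentage points, ran from -24.6 to -21.5.

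Of 2141 refits of 153 named genes none changed direction and 16 lost the call, in Aldoa, Aldoc, Cck, Gpc1, Rpl10a and Sec61a1. Of 1091 refits of 78 list medians 114 moved by more than the SD of the pulldowns. The 3 libraries in each group and the spread between them limit how small a change can be called.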
